A study of Homo sapiens with 24 samples.

Results

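The genes described here are the 2 genes for the histone variant H3.3 (H3-3A and H3-3B) and 8 genes of Polycomb repressive complex 2 (PRC2), chosen by symbol, 10 of the 58676 gene identifiers counted. They comprise the catalytic subunits EZH2 and EZH1, the core subunits EED and SUZ12, the accessory subunits JARID2, MTF2 and PHF19, and the inhibitor EZHIP. RNA of HSJD-DIPG-007, an established line of diffuse midline glioma (DMG) cells grown as spheroids, was sequenced in 24 libraries. By label 12 received vehicle and 12 LLY-283, an inhibitor of the arginine methyltransferase PRMT5, at the dose labelled GI40. Per treatment group there were 3 libraries from day 0, 3 from day 5 and 2 from day 7, with 1 from each of days 1, 2, 3 and 10. Day 0 stands for 0 days of treatment in the study, so day 0 libraries labelled LLY-283 are a baseline. In the column headers, libraries of days 0 to 3 carry a separate run of sample numbers from those of days 5 to 10. What the numbering stands for is not given. A change from day 0 to day 5 therefore cannot be told apart from a difference between these sets. Every library comes from this single line, whose labelled genotype is H3F3A K27M, ACVR1 R206H and PIK3CA MIS. Vehicle and treated cells thus share all these alleles, and a line without K27M is not analysed here. H3F3A is the former symbol of H3-3A. The labels give a single dose of LLY-283, and the methods add a second dose of drug or vehicle when the medium was renewed after 5 days. Libraries sharing a treatment and day are called technical repeats in the study, so the p-values measure the spread between these libraries, which need not include that between cultures, and tests of days 0 and 5 have n = 3 libraries per group.

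H3.3 is the replication-independent form of histone H3, deposited throughout the cell cycle by chaperones such as HIRA and the ATRX-DAXX complex. PRC2 methylates lysine 27 of histone H3, a mark of repressed developmental genes, through EZH2 or its paralogue EZH1 together with EED and SUZ12. In diffuse midline glioma, the K27M form of H3 interferes with PRC2 and lowers this mark across most of the genome, and EZHIP, normally expressed in the germline, inhibits PRC2 in a similar way.

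H3-3A and H3-3B encode one protein from different coding sequences. The 408 coding bases of the reference genes were identical at 320 positions, all 135 residues encoded after the initiator methionine matched, and the longest identical run was 14 bases. The stretch around the codon for lysine 27 is shown because K27M lies in it, as reference sequence in the coding part of exon 2 of each gene, with that codon in capitals. It lies at chr1:226064403-226064465 on the plus strand for H3-3A and at chr17:75779061-75779123 on the minus strand for H3-3B (hg38), and is read 5′ to 3′ along the gene.
H3-3A: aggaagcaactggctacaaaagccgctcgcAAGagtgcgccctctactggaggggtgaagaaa
H3-3B: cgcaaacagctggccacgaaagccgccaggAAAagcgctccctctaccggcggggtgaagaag
The windows differed at 15 of 63 bases. Gene counts do not separate the mutant from the wild-type transcript of H3-3A, so each value of that gene is the sum of both.

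EZH2, EED and PHF19 were the members called between treatment groups at day 5, and their promoters are shown for that reason. RefSeq sequences (GRCh38.p14) from 250 bases before to 50 bases after a gene's start site were searched on both strands for CCAAT, the box bound by NF-Y, and for the E2F-type letters TTTCCCGC, TTTCGCGC, TTTGCCGC and TTTGGCGC. Matches are in capitals. EZH2 is at chr7:148884242-148884541 on the minus strand, EED at chr11:86244503-86244802 on the plus strand and PHF19 at chr9:120868862-120869161 on the minus strand.
EZH2: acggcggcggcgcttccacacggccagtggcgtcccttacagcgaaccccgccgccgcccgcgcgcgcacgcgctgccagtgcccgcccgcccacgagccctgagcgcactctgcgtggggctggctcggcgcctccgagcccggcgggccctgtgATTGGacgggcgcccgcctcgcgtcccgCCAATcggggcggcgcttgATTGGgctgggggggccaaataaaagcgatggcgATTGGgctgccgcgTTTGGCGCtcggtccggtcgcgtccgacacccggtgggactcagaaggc
EED: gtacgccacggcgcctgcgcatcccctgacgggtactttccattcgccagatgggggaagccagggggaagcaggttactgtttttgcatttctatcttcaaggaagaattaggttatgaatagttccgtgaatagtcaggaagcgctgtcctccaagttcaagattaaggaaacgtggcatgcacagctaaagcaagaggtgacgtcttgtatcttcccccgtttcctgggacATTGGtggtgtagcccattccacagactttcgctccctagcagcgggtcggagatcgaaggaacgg
PHF19: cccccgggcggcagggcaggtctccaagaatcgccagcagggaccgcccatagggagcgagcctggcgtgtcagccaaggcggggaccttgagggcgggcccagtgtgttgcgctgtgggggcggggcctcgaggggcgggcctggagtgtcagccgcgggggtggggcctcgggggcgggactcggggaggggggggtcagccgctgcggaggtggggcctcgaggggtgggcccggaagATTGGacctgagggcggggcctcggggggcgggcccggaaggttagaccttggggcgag
The annotated genes span chr7:148807257-148884321 (EZH2), chr11:86201212-86278813 (EED) and chr9:120855651-120894896 (PHF19), so the start sites used for EED and PHF19 lie inside the annotated gene. CCAAT occurred 4 times before the start site of EZH2 and once each in EED and PHF19, at 16 and 9 bases before the start. It was present in 8 of the 10 members and in 35.7% of 27305 promoters of this length. An E2F-type match was present in EZH2, EZH1, SUZ12 and MTF2, 4 of 10 members, and in 3.325% of all promoters. These are letter matches in a fixed window and no measurement of binding.

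Library totals were 13835205 to 23190369 counts, with a median of 18688160.5. Levels are given as CPM (counts scaled to a common library total, with TMM normalisation over 24 libraries). Sums over marker lists are the exception, as these were scaled by library size alone. Of 11 glioma markers, OLIG2 was at 230.4 to 372 CPM, SOX2 at 256 to 470.1 and PDGFRA at 79.3 to 215 in all libraries, whereas SOX10 was at 0 to 0.603. The 8 immune and endothelial markers summed to 4.85 to 25.9 CPM, highest in vehicle day 10, with PTPRC at 0 to 0.278. Most of that highest sum was PECAM1, at 24.99 CPM in vehicle day 10 and 4.29 to 11.7 in the other libraries. The 14 fibroblast markers summed to 215 to 396 CPM, highest in vehicle day 5 repeat 3 and next highest in LLY-283 day 10 at 391 CPM. COL1A1 was at 53.9 CPM in vehicle day 5 repeat 3, against 4.58 to 31.5 in the other libraries. In LLY-283 day 10 COL1A1 was at 8.17 CPM and POSTN at 146, so the sum does not order the libraries by COL1A1. COL1A1 was next highest in LLY-283 day 2 (31.5 CPM), which the test of days 1 to 3 used, and in vehicle day 7 repeat 1 (31.2 CPM). The libraries were also placed between the day 5 vehicle mean (0%) and the day 5 LLY-283 mean (100%) over the genes called at day 5 other than the 10 members. On this scale the vehicle library of day 7 repeat 1 was at -3.68% and its LLY-283 counterpart at 72.9%, but for repeat 2 the library labelled vehicle was at 46.99% and the one labelled LLY-283 at -8.57%, so both were nearer to the opposite treatment group than repeat 1. The single vehicle library of day 10 lay at 61.0%. No test used day 7 or day 10 (the alternative with 22 libraries used day 7), and day 7 values are given by label.

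**Figure D1:**
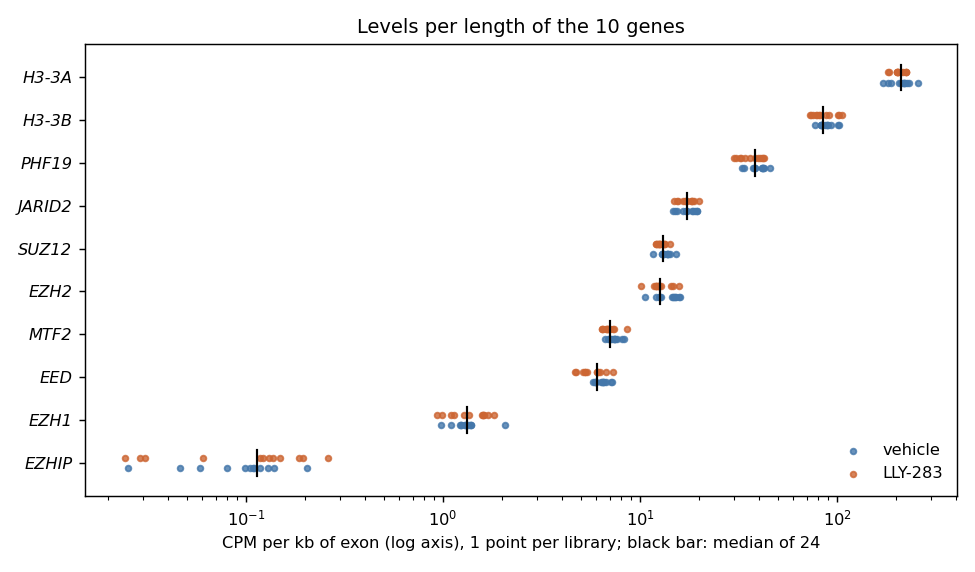
CPM per kb of exon on a log axis for the 10 genes, with 1 point per library (12 vehicle, 12 LLY-283) and a black bar at the median of 24. H3-3A lies at the top with a median of 211, EZH1 at 1.32 and EZHIP at 0.113.

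Per length of exon, the H3.3 genes stood above each of the 8 PRC2 members in all 24 libraries. H3-3A had a median of 211 CPM per kb of exon (170 to 257) and H3-3B of 85.1 (73.3 to 106). Among these PRC2 members, PHF19, a Tudor-domain subunit that binds methylated H3K36, was highest at 38.4 CPM per kb. The further PRC2 subunits described below were not ranked by length, so the order holds for the members only. It was followed by JARID2 at 17.2, SUZ12 at 13.1, EZH2 at 12.7, MTF2 at 7.02 and EED at 6.07. EZH1 was at 1.32 and EZHIP at 0.113. The ranges of JARID2 and SUZ12, of SUZ12 and EZH2 and of MTF2 and EED overlapped. SUZ12 exceeded EZH2 in only 12 of 24 libraries, so their order is not set by these data. With the longest annotated transcript as the length, EZH2 ranked 4 in place of 6, JARID2 6 in place of 4, EED 7 in place of 8 and MTF2 8 in place of 7.

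**Figure D2:**
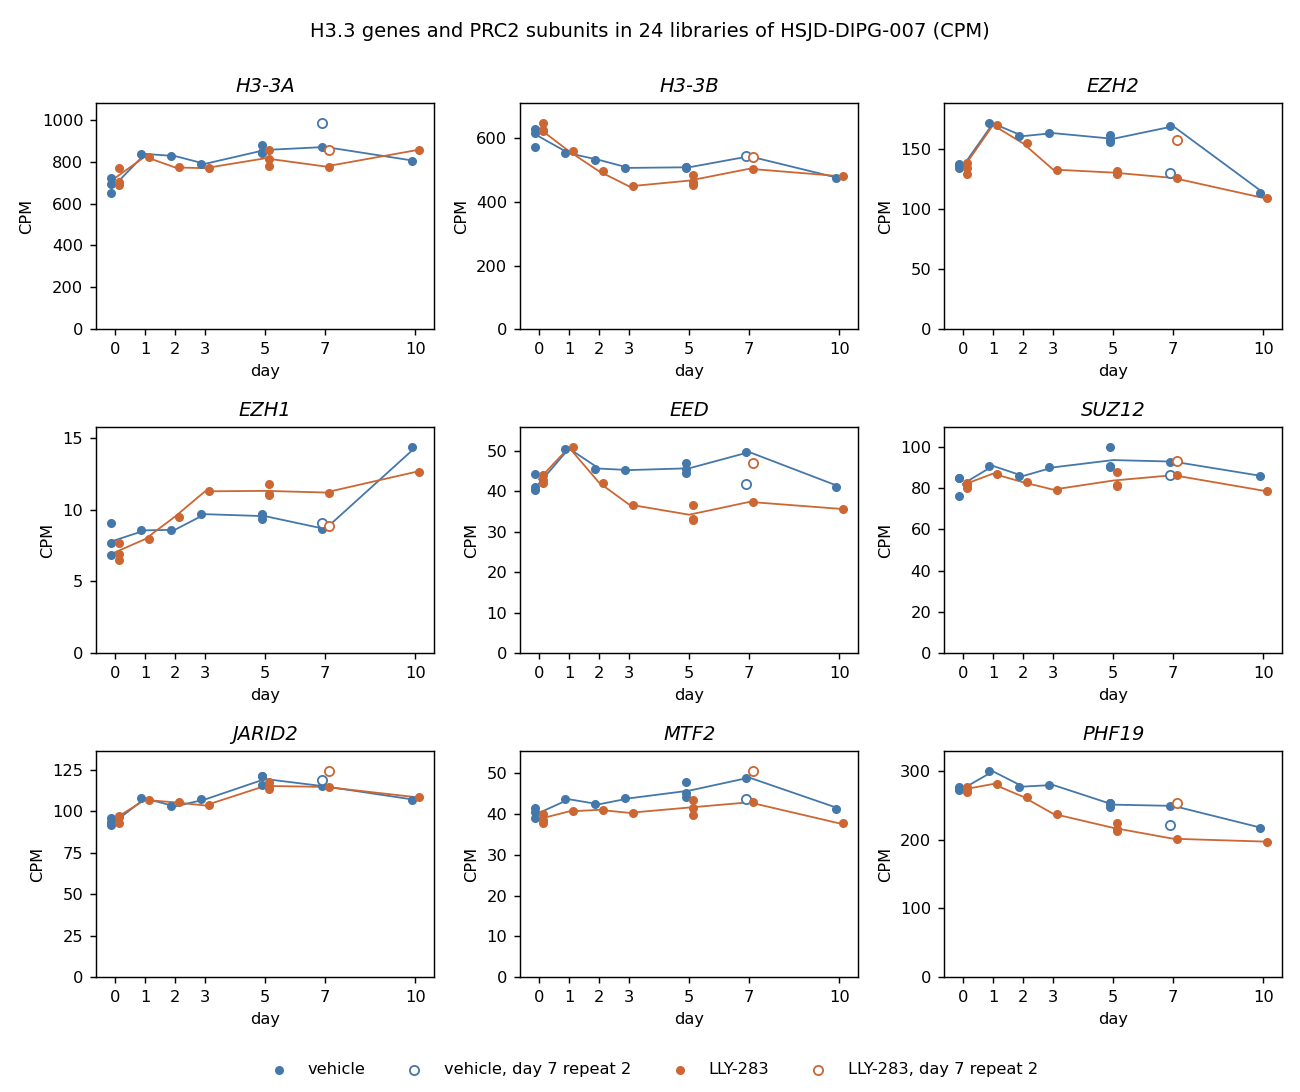
CPM against day for the 9 members that passed the filter, with 1 point per library and lines through the mean of each treatment group and day. Open points are the day 7 repeat 2 libraries, left out of the lines, and the EZH2, EED and PHF19 points of the treated libraries lie below those of vehicle at day 5.

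Both H3.3 genes changed between day 0 and day 5, in opposite directions. H3-3A was at 651, 695 and 721 CPM in the vehicle libraries of day 0 and at 845, 841 and 882 at day 5. All day 5 libraries lay above those of day 0, with a log2 fold change of 0.30 (SE 0.04, adjusted p = 2.5e-07). H3-3B fell in the same libraries, from 573, 616 and 629 CPM to 511, 509.8 and 507, by 0.27 on the log2 scale (SE 0.04, adjusted p = 8.5e-07). With LLY-283, H3-3A was at 772, 691 and 702 CPM at day 0 and at 856, 812 and 781 at day 5, a log2 fold change of 0.19 (adjusted p = 0.00046). This call was lost without LLY-283 day 5 repeat 1 (adjusted p = 0.024, log2 fold change 0.16) and in a fit with all 22 libraries of days 0 to 7 (adjusted p = 0.023). H3-3B went from 647, 622 and 627 CPM to 486, 464 and 452 with LLY-283, a fall by 0.42 on the log2 scale (SE 0.03, adjusted p = 3.8e-11).

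Between days 0 and 5 the single libraries were already shifted at day 1. H3-3A was at 837 CPM in vehicle and 824 with LLY-283 at day 1, above all 6 libraries of day 0. H3-3B was at 553 and 559.97 CPM, below all 6. Day 1 was not tested on its own, since it has 1 library per treatment group.

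Neither H3.3 gene passed the threshold between treatment groups at day 5. H3-3A had a log2 fold change of -0.04 for LLY-283 against vehicle (SE 0.04, adjusted p = 0.36), with overlapping groups. Single libraries moved this value, from -0.02 without LLY-283 day 5 repeat 3 (adjusted p = 0.75) or -0.03 without vehicle day 5 repeat 3 (0.67) to -0.07 without vehicle day 5 repeat 1 or 2 and -0.08 without LLY-283 day 5 repeat 1 (adjusted p = 0.048). H3-3B was lower in all 3 treated libraries, at -0.10 (SE 0.03, adjusted p = 0.021), which did not pass 0.01. It passed under 2 of 15 alternatives, DESeq2 (adjusted p = 0.0048) and without LLY-283 day 5 repeat 1 (adjusted p = 0.0015), and its adjusted p reached 0.11 without LLY-283 day 5 repeat 3.

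The share of H3-3A in H3.3 counts per length, a ratio within each library that was not tested, was 64.0 to 65.7% over the 6 libraries of day 0, 70.2 and 70.8% at day 1 and 72.6 to 73.8% over the 6 libraries of day 5. Every library of day 5 thus lay above every library of day 0. At day 5 the treatment groups overlapped, at 72.6 to 73.6% for vehicle and 73.5 to 73.8% for LLY-283. The summed H3.3 level was not tested either. In vehicle it was 1224, 1311 and 1350.5 CPM at day 0 and 1356, 1351 and 1389 at day 5. With LLY-283 it was 1420, 1313 and 1329 CPM at day 0 and 1342, 1275 and 1233 at day 5. For this sum with TMM scaling the treatment groups did not overlap at day 5, beside 46.3% of the single genes tested. With scaling by library size alone they overlapped. On that scale H3-3A was at 846 and H3-3B at 480 CPM in LLY-283 day 5 repeat 1, against 814 and 493 in vehicle day 5 repeat 1.

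**Figure D3:**
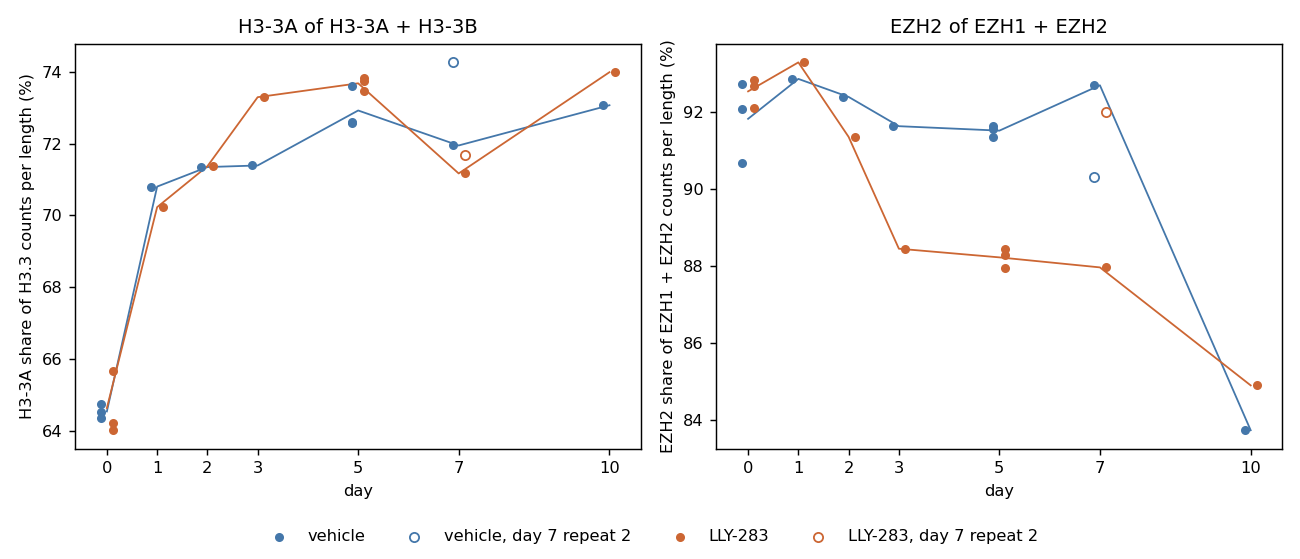
Percent of H3.3 counts per length from H3-3A (left) and percent of EZH1 plus EZH2 counts per length from EZH2 (right) against day, with 1 point per library, open points for day 7 repeat 2, lines through the means and axes that do not start at 0. The H3-3A share lies at 64.0 to 65.7% at day 0 and at 70.2 to 74.3% later, and the EZH2 share is lowest at day 10, at 83.7 and 84.9%.

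EZH2, the main catalytic subunit in dividing cells, was lower with LLY-283 at day 5. It was at 158, 162 and 156 CPM in vehicle and 130.1, 129 and 132 in treated libraries, with groups that did not overlap. The log2 fold change was -0.26 (SE 0.04, adjusted p = 3.1e-06). At day 5, 3 of the 9 members tested were lower and 0 were higher, against 14.1% lower and 12% higher of the 16491 genes tested. The groups of 7 of the 9 members, and of 46.3% of all genes tested, did not overlap. In the fit with 22 libraries, which includes day 7, only EED was called (adjusted p = 0.0015), with EZH2 at an adjusted p of 0.019 and PHF19 at 0.022.

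Over time, EZH2 rose in vehicle, whereas its change with LLY-283 did not pass the test. Vehicle EZH2 went from 136, 135 and 137 CPM at day 0 to the values above, a log2 fold change of 0.21 (SE 0.04, adjusted p = 2.9e-05). In the LLY-283 group EZH2 started at 129.7, 138 and 134 CPM and had a log2 fold change of -0.02 (SE 0.04, adjusted p = 0.69). The difference between these changes was -0.22 (SE 0.05, adjusted p = 0.0014) and was called, as was that of EED, among 14.9% of the 18369 genes tested. The rise in vehicle was not called in the fit with 22 libraries (adjusted p = 0.037). Neither difference was called in that fit (adjusted p = 0.16 for EZH2 and 0.021 for EED). At day 7, the libraries labelled repeat 1 were at 169 CPM for vehicle and 126 with LLY-283, and those labelled repeat 2 were at 130.01 and 157, in the reverse order. At day 10 EZH2 was at 114 CPM in vehicle and 109 with LLY-283, the lowest values of either group.

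EZH1, the catalytic subunit found more in non-dividing cells, rose over time in the treated libraries. At day 0 it was at 9.07, 6.84 and 7.67 CPM in vehicle and 6.49, 7.69 and 6.88 in libraries labelled LLY-283. At day 5 it was at 9.70, 9.60 and 9.32 CPM in vehicle and 11.03, 11.1 and 11.8 with LLY-283. With LLY-283 the change over time was 0.71 on the log2 scale (SE 0.10, adjusted p = 2.4e-06), the largest of the 9 members in that comparison. In vehicle it was 0.27 (SE 0.12, adjusted p = 0.06) and was not called. With single libraries left out, the vehicle change ranged from 0.17 to 0.39 and its adjusted p from 0.011 to 0.28. The treatment difference at day 5 was 0.27 (SE 0.10, adjusted p = 0.038) and the difference in change 0.45 (adjusted p = 0.03), and neither passed the threshold. EZH1 had 126 to 275 counts per library, the fewest of the members tested. Its highest level was at day 10, at 14.3 CPM in vehicle and 12.6 with LLY-283.

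EZH2 made up most of the EZH1 plus EZH2 counts per length in every library. The share was 91.4 to 91.6% in vehicle and 87.9 to 88.4% with LLY-283 at day 5, and the groups did not overlap. It was 88.5% with LLY-283 against 91.6% in vehicle at day 3 and 84.9 against 83.7% at day 10. This ratio was not tested.

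**Figure D4:**
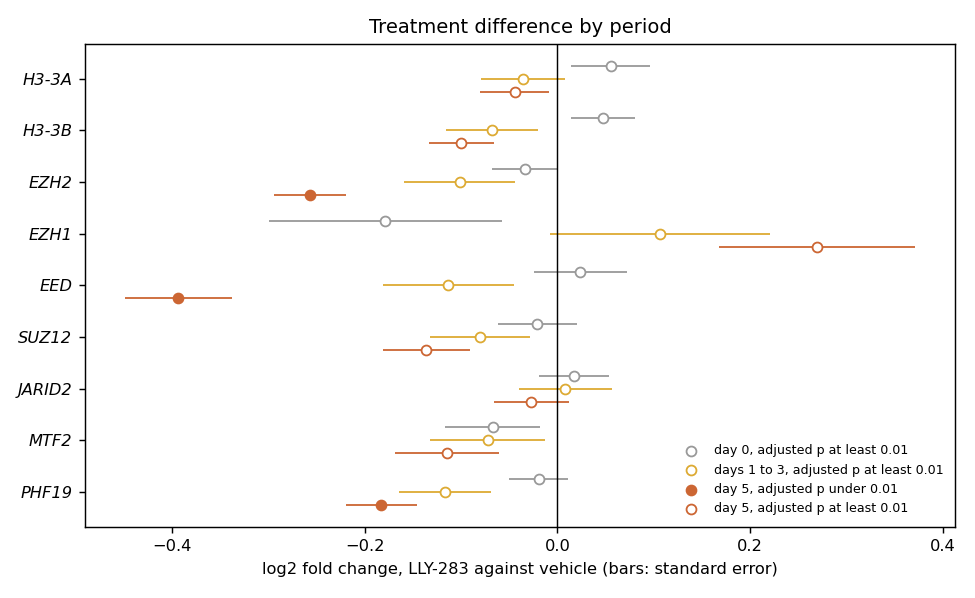
Log2 fold change of LLY-283 against vehicle for 9 members at day 0 (baseline), days 1 to 3 and day 5, with bars of 1 standard error. Filled points passed an adjusted p of 0.01, which EED (-0.39), EZH2 (-0.26) and PHF19 (-0.18) did at day 5.

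EED, the subunit that binds the trimethylated mark and stimulates the enzyme, had the largest treatment difference of the members called at day 5. It was at 45.4, 44.7 and 47.03 CPM in vehicle and 36.7, 32.9 and 33.2 with LLY-283, with every treated library below every vehicle library. The log2 fold change was -0.39 (SE 0.06, adjusted p = 2.2e-06). Over time EED fell by 0.31 on the log2 scale with LLY-283 (SE 0.05, adjusted p = 1.5e-05) from 42.8, 42.1 and 44.02 CPM at day 0. In vehicle, it went from 40.3, 41.1 and 44.4 CPM by 0.11 (adjusted p = 0.09), which was not called. The difference between the changes was -0.41 (SE 0.07, adjusted p = 0.00011). At day 3, the single libraries were at 45.3 CPM in vehicle and 36.8 with LLY-283, and at day 1 at 50.6 and 50.9.

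SUZ12, the core subunit that holds the complex together, was lower in all 3 treated libraries of day 5 but did not pass the threshold. It was at 90.8, 89.98 and 99.6 CPM in vehicle and 87.9, 81.1 and 81.6 with LLY-283, a log2 fold change of -0.14 (SE 0.04, adjusted p = 0.018). The highest value was that of vehicle day 5 repeat 3, the library highest in fibroblast markers. Without that library the log2 fold change of SUZ12 was -0.09 (adjusted p = 0.13), and EZH2, EED and PHF19 were still the 3 members called. Over all single libraries left out, SUZ12 ranged down to -0.18 (adjusted p = 0.0043, without LLY-283 day 5 repeat 1), the one leave-out fit that called it. In vehicle SUZ12 rose with time, by 0.17 on the log2 scale (adjusted p = 0.0032), a call lost without vehicle day 5 repeat 3 (adjusted p = 0.023) and without vehicle day 0 repeat 1 (adjusted p = 0.024). It was also lost with DESeq2 (adjusted p = 0.013), with scaling by library size alone (adjusted p = 0.035) and in the fit with 22 libraries (adjusted p = 0.013). With LLY-283 its change over time was 0.05 (adjusted p = 0.26). The pseudogene SUZ12P1 carried counts equal to 13.4 to 21.1% of those of SUZ12, so reads may have been divided between the loci.

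PHF19 was lower with LLY-283 at day 5, at 213, 215 and 224 CPM against 253, 247 and 253 in vehicle. The log2 fold change was -0.18 (SE 0.04, adjusted p = 0.00023), and the groups did not overlap. Unlike EZH2, PHF19 also fell over time in vehicle, by 0.14 on the log2 scale from 273, 274 and 277 CPM (adjusted p = 0.0012), a call lost without vehicle day 5 repeat 1 (adjusted p = 0.011) or repeat 2 (adjusted p = 0.024). With LLY-283 it fell by 0.31 (SE 0.03, adjusted p = 2.6e-08) from 274, 269 and 276 CPM. The difference between these changes was -0.16 (adjusted p = 0.012), above the threshold. This difference was called in 7 of 21 alternatives and not in the other 14, where adjusted p reached 0.15. The calls came with DESeq2 (adjusted p = 0.00082), its size factors in edgeR (0.0053), at least 10 counts in every library (0.0073) and 18 libraries (0.0061). The remaining calls came with single libraries left out (adjusted p from 0.0054). The change in vehicle was not called in the fit with 22 libraries (adjusted p = 0.12).

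JARID2, a DNA-binding subunit that helps to recruit the complex, rose with time in both groups. In vehicle it went from 93.6, 95.6 and 91.6 CPM to 121, 121 and 116, a log2 fold change of 0.34 (SE 0.04, adjusted p = 4.7e-08). With LLY-283 the change was 0.29 (SE 0.04, adjusted p = 2.8e-07), from 97.3, 93.03 and 96.4 CPM to 115, 118 and 113. The groups overlapped at day 5, with a treatment difference of -0.03 (SE 0.04, adjusted p = 0.63), whose sign turned with scaling by library size alone (0.0016, adjusted p = 0.98).

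MTF2, which binds CpG-rich DNA and methylated H3K36, passed the test in vehicle over time alone. There it rose by 0.17 (adjusted p = 0.0094) from 41.4, 39.04 and 40.4 CPM to 47.9, 44.2 and 45.2, a call lost under 11 of 15 alternatives, with adjusted p up to 0.077. The treatment difference at day 5 was -0.11 (SE 0.05, adjusted p = 0.098).

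EZHIP was close to the limit of detection. It had 1 to 10 counts in each of the 24 libraries and failed the filter on low counts in every comparison, so it was not tested. EZHIP levels were 0.0459 to 0.492 CPM. For scale, the limit that a count of 0 would allow, 3 counts per library, equals 0.129 to 0.217 CPM here, and no library had a count of 0.

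**Figure D5:**
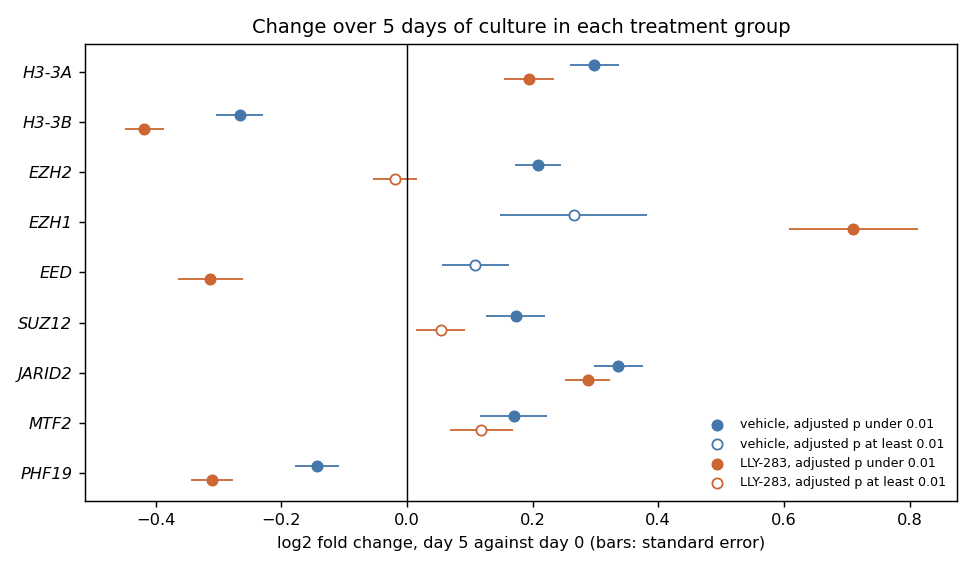
Log2 fold change of day 5 against day 0 for 9 members within vehicle and within LLY-283, with bars of 1 standard error and filled points at an adjusted p under 0.01. EZH2, SUZ12 and MTF2 are filled for vehicle and open for LLY-283, EZH1 and EED the reverse, and the difference between the 2 changes was called for EZH2 and EED.

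Counted over the members, 5 of 9 rose and 2 fell in vehicle from day 0 to day 5, against 22.2% and 16.7% of the 17106 genes tested. With LLY-283, 3 rose and 3 fell, against 22.9% and 19.5% of 17341 genes. At day 0, the baseline, 0 of 9 members were called between the groups labelled LLY-283 and vehicle, and 0.0169% of 17780 genes (3 genes). Log2 fold changes of members ran from -0.18 for EZH1 to 0.06 for H3-3A. Both rest on single libraries, with leave-out values of -0.27 (without vehicle repeat 2) to -0.06 (without vehicle repeat 1) for EZH1 and 0.0058 (without LLY-283 repeat 1) to 0.09 (without LLY-283 repeat 2) for H3-3A, which was at 0.02 without vehicle repeat 1 and 0.08 without vehicle repeat 3. No member had an unadjusted p under 0.05 at day 0, and DESeq2 also called 0. The members' median log2 fold change at day 5 was -0.11, beside 0.02 for all genes tested. It was 0.17 in vehicle over time, beside -0.02, and 0.05 with LLY-283, beside 0.01.

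Over days 1 to 3, with 1 library per treatment group and day and the day as a block, edgeR called 0 of 9 members and 0% of the 17240 genes tested, although 2879 genes had an unadjusted p under 0.05 and DESeq2 called 12 genes. Of the members only PHF19 had an unadjusted p under 0.05 (log2 fold change -0.12, adjusted p = 0.26). DESeq2 called 0 members. EZH2 was at 172, 161 and 163 CPM in vehicle on days 1, 2 and 3 and at 170.2, 155 and 133 with LLY-283. PHF19 was at 299.5, 277 and 279.7 against 281, 263 and 238 CPM. The gap in both was widest on day 3.

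Proliferation markers also differed between treatment groups. All 17 markers were called lower with LLY-283 at day 5, against 14.1% of all genes tested, with a median log2 fold change of -0.30. Their summed level, scaled by library size alone, was 3574 to 3659 CPM in treated and 4509 to 4575 CPM in vehicle libraries. At day 0 it was 3759 to 3796 and 3696 to 3836 CPM. In vehicle, 12 of 17 rose from day 0 to day 5 and 1 fell, E2F1 at -0.19 (adjusted p = 0.00064), against 22.2% and 16.7% of all genes. No marker was at 0 counts in any library. Across the 24 libraries, the level of EZH2 had a Pearson correlation of 0.86 with the mean marker level and EED of 0.79, SUZ12 of 0.78, MTF2 of 0.73, H3-3A of 0.53, JARID2 of 0.45, PHF19 of 0.41, H3-3B of -0.05 and EZH1 of -0.15. PHF19 fell in vehicle over time while most markers rose. These libraries share 1 culture line and their days, and no p is given. Some markers of other lists also differed at day 5, when 12% of all genes tested were higher and 14.1% lower with LLY-283. Of 12 fibroblast markers tested, LUM, POSTN and THY1 were higher with LLY-283 (log2 fold changes 0.44, 1.70 and 0.22, adjusted p = 7.2e-06, 0.00061 and 3.9e-05) and none was lower, with the list's median at -0.45. POSTN was at 20.3, 20.9 and 29.4 CPM in vehicle and 80.7, 74.03 and 68.7 with LLY-283. The summed list was at 226, 239.8 and 396 CPM in vehicle and 315, 321 and 324 with LLY-283, in overlapping ranges. Of 10 glioma markers tested, PDGFRA, PTPRZ1, BCAN and OLIG1 were higher (0.41, 0.28, 0.22 and 0.15) and NES and OLIG2 lower (-0.24 and -0.13), with adjusted p from 9.4e-10 to 0.0035. The count of lower glioma markers is near the share of all genes. The part of proliferation, fibroblast and glioma markers in the differences of EZH2, EED and PHF19 was not tested, and fewer cells of a type and less RNA per cell cannot be told apart in bulk RNA.

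The genes whose log2 CPM followed EZH2 most closely over the 24 libraries, of 20876 compared, were DNMT1 (Pearson r = 0.96), NUP50 (0.94) and STIL (0.94). DNMT1 is the maintenance DNA methyltransferase. For H3-3A they were UQCRH (0.95), LAPTM4B (0.94) and COX7B (0.93), of which UQCRH and COX7B encode respiratory chain subunits. Without the 4 libraries of day 7, r was 0.94 to 0.97 for the former and 0.92 to 0.95 for the latter.

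Other genes of the pathway were read from lists chosen by function. Of 6 further PRC2 subunits, 1 was lower with LLY-283 at day 5 and none was higher, against 14.1% and 12% of all genes tested, so the count is near the background. That was RBBP7, a histone-binding subunit, at 209, 216 and 213 CPM in vehicle and 187, 182 and 181 with LLY-283 (log2 fold change -0.19, adjusted p = 8e-05). EPOP did not pass (-0.14, adjusted p = 0.019). In vehicle over time 4 of 6 rose, against 22.2% of all genes, among them EPOP (0.43, adjusted p = 4.1e-08) and RBBP7 (0.26, adjusted p = 2.1e-06).

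Of 9 H3.3 chaperones, 3 were lower at day 5 with LLY-283 and none was higher, against 14.1% and 12% of all genes tested. DEK was at 489.7, 484 and 522 CPM in vehicle and 399, 362 and 365 with LLY-283 (log2 fold change -0.38, adjusted p = 6.4e-09). ASF1B, which hands over histones in dividing cells, had a log2 fold change of -0.34 (adjusted p = 2.3e-06). The other was HIRA, outside the rule for naming genes (-0.15, adjusted p = 0.0053). All 9 rose over time in vehicle, against 22.2% of all genes, led by ATRX (0.40, adjusted p = 4.2e-10) and CABIN1 (0.39, adjusted p = 6.1e-10), and 5 rose with LLY-283, against 22.9%.

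Of 19 PRC1 subunits tested, some of which bind the mark that PRC2 lays down, 4 were lower and 1 was higher with LLY-283 at day 5, against 14.1% and 12% of all genes tested. CBX2, a reader of methylated H3K27, had a log2 fold change of -0.40 (adjusted p = 9.7e-09), and PCGF6 of -0.48 (adjusted p = 1.9e-05). KDM2B was also lower (-0.16, adjusted p = 0.0038), and the one higher was PHC3 (0.18, adjusted p = 0.0045). In vehicle over time 4 rose and 4 fell, near the 22.2% and 16.7% of all genes, with CBX2 at 0.42 (adjusted p = 7.2e-10) and PHC2 at -0.51 (adjusted p = 4.1e-12). Of 4 H3K27 demethylases and acetyltransferases none was called at day 5, with EP300 at -0.06 (adjusted p = 0.19) and KDM6B at 0.08 (adjusted p = 0.28). Over time in vehicle 1 of the 4 rose, against 22.2% of all genes. That was CREBBP at 0.14 (adjusted p = 0.0040), and KDM6A was at 0.15 (adjusted p = 0.054). Of 5 H3K36 methyltransferases 1 was lower and 1 higher at day 5, against 14.1% and 12% of all genes tested. NSD2 was lower (-0.16, adjusted p = 0.0011) and SETD2 higher (0.14, adjusted p = 0.0024). Over time in vehicle 4 of the 5 rose, against 22.2% of all genes, with NSD2 at 0.53 (adjusted p = 5.9e-12) and NSD3 at 0.31 (adjusted p = 3.8e-08). The other fell, against 16.7% of all genes, NSD1 at -0.37 (adjusted p = 1.1e-05).

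Of 16 loci known as Polycomb-repressed, 13 had too few counts for the test at day 5, which left CDKN2A, CDKN2B and CDKN1C. Of these 3, 1 was higher and 0 were lower with LLY-283, against 12% and 14.1% of all genes tested. CDKN2B, a cyclin-dependent kinase inhibitor, was at 7.59, 8.81 and 9.32 CPM in vehicle and 12.5, 11.6 and 12.9 with LLY-283, a log2 fold change of 0.55 (adjusted p = 1.6e-04). CDKN1C was at -0.09 (adjusted p = 0.19) and CDKN2A at -0.11 (adjusted p = 0.80). In vehicle over time 1 of 4 loci tested rose, against 22.2% of all genes. That was CDKN1C (0.40, adjusted p = 1.7e-06), and CDKN2A was at 0.41 (adjusted p = 0.26).

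Pseudogenes similar in sequence to members limit some counts. The 13 pseudogenes matched to H3-3A carried counts equal to 2.08 to 5.17% of those of H3-3A, and the 2 matched to EED at most 0.112%. Exons of H3-3A overlap H3-3A-DT on the other strand, those of H3-3B overlap UNK, and the sources used here do not state whether the counting used strand.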

How the data were processed

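Polyadenylated RNA of HSJD-DIPG-007 cells was converted to libraries with a directional kit, and trimmed reads were pseudoaligned by the authors to human transcripts (hg38) using kallisto (version not given in the sources used here). The authors deposited counts per gene as whole numbers that are not scaled to library size. The annotation release and the use of strand in counting are not given in the sources used here. Of 58676 identifiers, 58207 were matched to a symbol. All 24 columns were used, grouped by the labels.

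Counts were tested with edgeR 4.0.16 in R 4.3.3 (filter on low counts by group, TMM, robust quasi-likelihood F test, Benjamini-Hochberg adjustment over all genes tested, calls at an adjusted p under 0.01). Each comparison used its own libraries, days 1 to 3 had the day as a block, and the difference between changes was the interaction over the 12 libraries of days 0 and 5. Log2 levels used a pseudocount of 0.5 CPM. Members and lists were chosen with earlier results of these data known, and so was the test design. The named genes were the 10 members, in each other list the 2 genes of smallest p at day 5 and the 2 in vehicle over time, and the 3 genes most correlated with H3-3A and EZH2. HIRA, KDM2B, PHC3, NSD1, E2F1 and the fibroblast and glioma markers called at day 5 were named after their values were seen, to fill in small counts, and 1 counted gene is not reported here by name.

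Library totals of 13835205 to 23190369 counts limit what can be seen of EZHIP, and floors cover counting error only. Chi-square values between repeats (genes of 20 or more counts) were 1.65 to 3.79 per degree of freedom at days 0 and 5. At day 7 they were 13.4 and 11.2. Repeats of the same treatment group and day were thus no copies of one another, and other pairs of libraries were not compared in this way. Tests were checked on simulated data. Alternatives were DESeq2 1.42.0, edgeR with DESeq2 size factors or with library size only, omitting the low-count filter or requiring 10 counts in each library, all 22 libraries of days 0 to 7, a replicate block, an adjusted p under 0.05, pseudogene counts added to their parents and leaving out each library. A fit of the 18 libraries of days 0 to 5 was added after the data were seen. Pseudogenes were matched to the member of best alignment, over at least 250 bases at 90% identity or more, whatever gene their symbol names. No columns of author comparisons were present in the count file.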

Additional observations from a re-analysis of the deposited data

Results flagged for a closer look

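For EZH2 the change from day 0 to day 5 differed between the treatment groups by -0.22 on the log2 scale, LLY-283 less vehicle (edgeR interaction test, adjusted p = 0.0014). The change itself was 0.21 in vehicle and -0.02 with LLY-283. For EED the changes differed by -0.41 (adjusted p = 0.00011), with 0.11 in vehicle and -0.31 with LLY-283. Over the alternatives the EZH2 difference was -0.26 to -0.18 and that of EED -0.46 to -0.38. Each was called in 20 of 21 alternatives. Neither passed when the 22 libraries of days 0 to 7 were fitted together, at an adjusted p of 0.16 for EZH2 and 0.021 for EED.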

How the results depend on the processing

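Of 828 values for single members under the alternatives, 782 kept direction and side of the threshold, 26 lost and 12 gained the call, and 8 changed sign. The sign changes were all of differences near 0: at day 5 JARID2 with library size alone (0.0016); at day 0 PHF19 in the 18 libraries of days 0 to 5 (0.00065), SUZ12 without vehicle replicate 2 (0.0032) and JARID2 without vehicle replicate 3 (-0.0025); with LLY-283 over time EZH2 without day 0 replicate 2 (0.00093); and over days 1 to 3 JARID2 with no filter (-0.0017), in 22 libraries (-0.0095) and without day 2 (-0.0088). In the fit of 22 libraries 1 member was called at day 5, against 3, beside 2042 of all genes. For the difference in change 0 were called, against 2, beside 51 of all genes. In vehicle over time 3 of the 7 calls were kept. Those of EZH2 (adjusted p = 0.037), SUZ12 (0.013), MTF2 (0.034) and PHF19 (0.12) were lost. How many of all genes that fit called in vehicle over time is not given here. At day 5, 5 members were called without LLY-283 replicate 1, with a range of 3 to 5 when single libraries were left out. Over all genes these leave-out fits called 3193 to 4423. At an adjusted p under 0.05, 6 of 9 members were called at day 5, beside 6060 of 16491 genes. For the difference in change, DESeq2 called H3-3B (adjusted p = 0.0034) and PHF19 (adjusted p = 0.00082) besides EZH2 and EED. How many of all genes DESeq2 called there is not given here, so these calls have no background beside them. An adjusted p under 0.05 gave 5 members, beside 4452 of 18369 genes. Counts over all genes also moved. At day 5 the 22 libraries gave 2042 genes. At day 0 the counts were 56 without a filter, 0 in 22 libraries, 5 in 18 libraries, 8 at an adjusted p under 0.05 and 0 to 17 with single libraries left out. The difference in change gave 51 genes in 22 libraries and 4452 at an adjusted p under 0.05. Days 1 to 3 gave 12 with DESeq2, 1 with its size factors, 517 without a filter, 2 in 22 libraries, 934 in 18 libraries, 3 at an adjusted p under 0.05, and 0 to 256 with a day left out (39 without day 2, 256 without day 3). The cause of these shifts was not tested. By the longest transcript the ranks of EZH2, EED, JARID2 and MTF2 were 4, 7, 6 and 8. Leaving out single day 0 or day 5 libraries gave -0.064 to 0.0032 for SUZ12 and -0.0025 to 0.036 for JARID2 at day 0, and -0.042 to 0.00093 for EZH2 with LLY-283 over time. With a replicate block, 6 genes were called at day 0, and the only member call that changed was that of MTF2 in vehicle over time (adjusted p = 0.011). Same-numbered libraries had correlations of their deviations from -0.092 to 0.097, so the numbers were not taken to pair the libraries. Depth limits EZHIP, at 1 to 10 counts, and EZH1, at 126 to 275.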
